A study of Mus musculus with 6 samples.

Results

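The genes described here are 35 genes of the unfolded protein response and of the early secretory pathway, measured by RNA-Seq in germinal center (GC) and naive B cells from the Peyer's patches of mice. They were taken from a written list of gene symbols by a rule that uses no expression value or threshold, and they are 35 of the 39179 Ensembl gene identifiers in the expression table. Of the 35, 34 matched by symbol and 1, Mzb1, by an older name, 2010001M09Rik.

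Both populations came from the ileal Peyer's patches of WT C57BL/6 female littermate mice aged 12 weeks. GC B cells were sorted as Fas+GL7+ and resting B cells, labelled naive, as Fas-GL7- cells, and neither the labels nor the methods name a transgene, gene deletion or treatment for either group. Each population was represented by 3 libraries, and each library was a pool of 5 mice, so the spread between replicates is a spread between pools. The values deposited for each gene and pool were FPKM, a read density scaled to transcript length and library size. They were rescaled here to TPM, transcript abundance as parts of a fixed total, so that every pool has the same total. Ratios between genes within a pool are the same in both units.

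The endoplasmic reticulum (ER) is where membrane and secreted proteins, antibody chains among them, enter the secretory pathway, fold, gain disulfide bonds and sugars, and are sent on or degraded. When unfolded protein accumulates in it, the sensors IRE1 (encoded by Ern1), PERK (Eif2ak3) and ATF6 start the unfolded protein response. IRE1 splices the mRNA of the transcription factor XBP1, PERK phosphorylates eIF2 and so favors the translation of ATF4, and ATF6 is cleaved to release a transcription factor. Their targets include ER chaperones, disulfide oxidoreductases, parts of the protein import channel and the machinery of ER-associated degradation (ERAD). In B cells the pathway, XBP1 included, is best known from antibody-secreting plasma cells. Gene-level RNA-Seq values measure mRNA abundance and show neither the splicing of Xbp1 nor the phosphorylation of PERK and eIF2.

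All 35 genes were expressed above the filter used for testing, at least 1 TPM in at least 3 of the 6 pools, and 32 of them had a mean of at least 10 TPM in both populations. Their median level over the 6 pools was 78.6 TPM, against 20.3 TPM for the 12785 genes tested. Together they took 0.417% of all TPM in GC B cells and 0.403% in naive B cells. Their summed level was 4211, 4176 and 4116 TPM in GC pools 1 to 3 and 4111, 3874 and 4112 TPM in naive pools 1 to 3. The GC mean was 4167 ± 47.9 TPM and the naive mean 4032 ± 138 TPM (SD, n = 3 each). The GC pools lay above the naive pools, but the nearest pair was 4116 against 4112 TPM, and the difference of 135 TPM turned negative on FPKM as deposited, under quantile normalization and when length and GC content were corrected for, while median-ratio scaling left 15.3 TPM. An exact permutation test of 3 against 3 pools, two-sided, gave p = 0.1, the smallest value this design allows, and 0.114 after Benjamini-Hochberg adjustment over 8 sums. The direction of the total also depended on Mzb1, with a mean of 397 TPM in GC pools and 150.2 TPM in naive pools. That difference is larger than the 135 TPM of the total, so the other genes together had the lower mean in GC B cells.

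The single genes differed between the populations in both directions. GC and naive pools were compared with limma on log2(TPM + 1), and a gene was called at a Benjamini-Hochberg adjusted p under 0.05 over all genes tested. Of the 35 genes, 13 (37.1%) were higher in GC B cells, 10 (28.6%) were lower and 12 were not called. Over all genes tested, 35.5% were called higher and 30.1% lower, so that 23 of 35 genes (65.7%) were called against 65.6% of all genes. The values of the 3 GC pools and the 3 naive pools did not overlap for 25 of the 35 genes (71.4%), against 70.7% of all genes tested. These shares were near those of the whole transcriptome. The median log2 fold change of the 35 genes was −0.04 (0.00694 without GC pool 2), against 0.03 for all genes tested, and the median of its absolute value was 0.41 against 0.54. In bulk samples such as these, a change in the share of cells that express a gene and a change in the RNA per cell cannot be told apart. TPM is also a share of each pool's total and is not scaled to cell number. A gene called lower need not have fewer transcripts per cell, nor a gene called higher more.

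**Figure D1:**
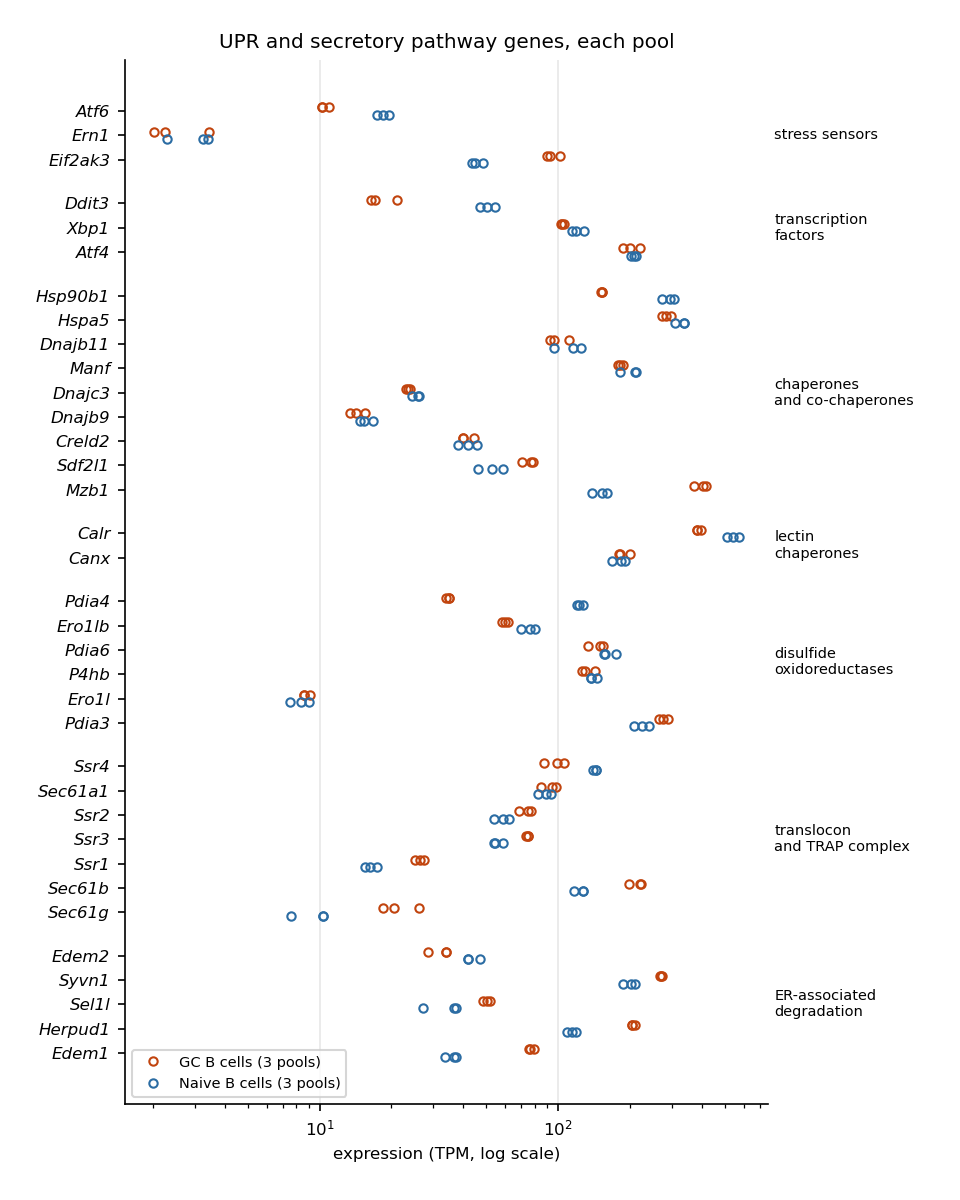
Expression of the 35 genes in each pool, in TPM on a log scale, ordered by role and, within a role, from the lowest to the highest log2 fold change; red circles are the 3 GC pools and blue circles the 3 naive pools. The circles of both populations lie apart for 25 of the 35 genes, where the pools of 70.7% of all genes tested did. They lie apart most widely for Pdia4, which is higher in the naive pools, and for Mzb1, which is higher in the GC pools.

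The libraries carried the labelled identities. All 6 GC B cell markers checked were higher in the GC pools, with a summed level of 1410 to 1438 TPM against 51.6 to 57.5 TPM in naive pools. The 5 resting B cell markers with a value were lower in the GC pools, at 144 to 159 TPM against 1297 to 1384 TPM. The 6 pan B cell markers were abundant in every pool, but 5 of them were lower in GC B cells and 1 was higher. Their summed level was 4349 to 4386 TPM in GC pools and 6483 to 6671 TPM in naive pools. Epithelial markers differed as well: 8 of the 12 tested were lower in GC B cells and 1 was higher, and the summed level of the 14 listed was 71.5 to 162 TPM in GC pools, highest in GC pool 2, and 210 to 260 TPM in naive pools. Epithelial cells of the gut have a large secretory pathway of their own, and the part of these transcripts in the values below was not tested. T cell, myeloid and stromal lists summed to at most 140 TPM in any pool, of which Lck, also transcribed in B cells, gave up to 136 TPM, and Cd3e, Cd3d and Cd3g stayed under 2 TPM. Estimated depth was about 9700000 to 16200000 reads per pool.

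Many ER stress genes share a promoter sequence through which ATF6 and XBP1 act, the ER stress element (ERSE), which was defined in the promoters of ER chaperone genes such as Hspa5, Hsp90b1 and Calr. Because the 35 genes include direct targets of the response that went in opposite directions, the windows from 250 bases before to 50 bases after the RefSeq start (build GRCm38.p6) were searched on both strands. A window was at hand for 30 of the 35 genes. The letters searched were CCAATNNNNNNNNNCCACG for ERSE and ATTGGNCCACG for ERSE-II. In the ERSE-II variant the spacing between the boxes is shorter and the CCAAT box is in the opposite orientation, read as ATTGG. ERSE was present in 9 of the 30 windows (30.0%) and in 39 of all 32851 windows (0.119%), and ERSE-II in 2 of the 30 windows and in 12 of all windows (0.0365%). No gene held both. The stretches around the element are shown for the 4 genes that were lower in GC B cells and held an ERSE (Hspa5, Hsp90b1, Calr and Ero1lb), for Syvn1, which was higher in GC B cells and held an ERSE, and for Herpud1, which was higher in GC B cells and held an ERSE-II. Capitals mark the element, read 5′ to 3′ on the strand of the gene; a capital run that starts with CGTGG is the element on the opposite strand.
Hspa5, chr2:34772005-34772063, plus strand: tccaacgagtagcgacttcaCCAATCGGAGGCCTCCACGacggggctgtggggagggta
Hsp90b1, chr10:86705513-86705676, minus strand: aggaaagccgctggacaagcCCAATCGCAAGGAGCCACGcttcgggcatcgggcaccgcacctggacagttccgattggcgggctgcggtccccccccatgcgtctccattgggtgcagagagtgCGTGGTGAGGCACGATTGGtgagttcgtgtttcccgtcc
Calr, chr8:84847055-84847113, minus strand: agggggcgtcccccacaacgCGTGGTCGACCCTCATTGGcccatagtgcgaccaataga
Ero1lb, chr13:12565662-12565720, plus strand: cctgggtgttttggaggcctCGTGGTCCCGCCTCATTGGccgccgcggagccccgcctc
Syvn1, chr19:6046512-6046570, plus strand: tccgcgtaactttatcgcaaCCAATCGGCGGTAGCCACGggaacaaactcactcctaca
Herpud1, chr8:94386357-94386407, plus strand: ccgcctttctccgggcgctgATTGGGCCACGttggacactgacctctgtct

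The element began 65 bases before the RefSeq start in Hspa5, 162 in Calr, 201 in Ero1lb and 44 in Syvn1, and Hsp90b1 held it at 212 and again at 107 bases before the start. By call, ERSE was present in 4 of the 9 windows of genes lower in GC B cells, in 1 of the 11 windows of genes higher in GC B cells and in 4 of the 10 windows of genes not called, namely Pdia6, Canx, Dnajc3 and Creld2. ERSE-II was present in Herpud1 and, 7 bases after the start, in Dnajb11, which was not called. The UPR element (TGACGTGG), the cAMP response element (TGACGTCA) and the composite element bound by ATF4 with C/EBP partners (TGATGNAAT) were present in 0 of the 30 windows, and in 0.676%, 1.79% and 0.965% of all windows. A match to these letters describes the window and is not a measurement of binding.

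**Figure D2:**
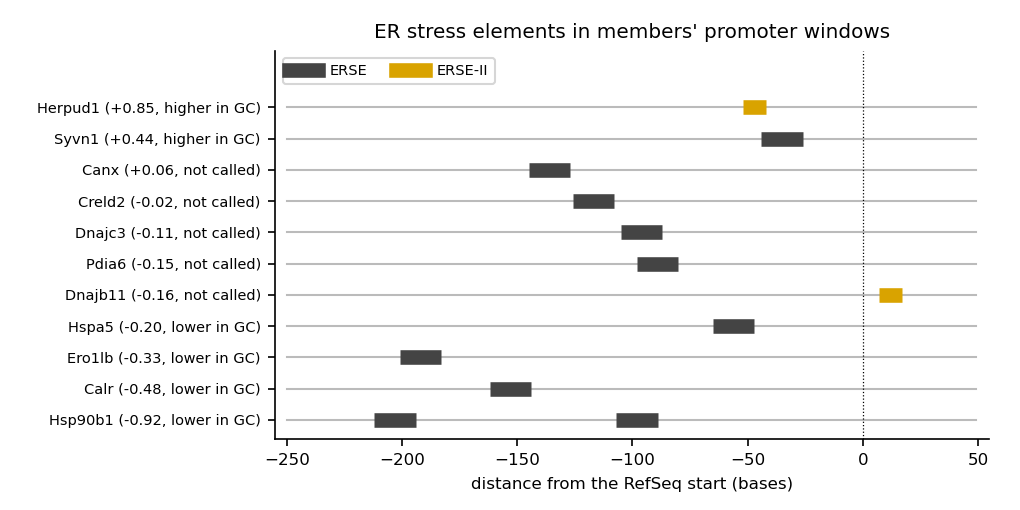
Position of ERSE (dark bars) and ERSE-II (yellow bars) in the promoter windows of the 11 genes that hold either, as distance in bases from the RefSeq start, ordered by log2 fold change of GC against naive B cells, which is given with the call beside each name. Genes with an element run from Hsp90b1, lower in GC B cells by −0.92, to Herpud1, higher by 0.85.

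The 3 stress sensors went in different directions. Eif2ak3, which encodes PERK, was at 90.0, 101 and 92.0 TPM in GC pools 1 to 3 and at 48.2, 44.7 and 43.3 TPM in naive pools 1 to 3, and the lowest GC pool lay far above the highest naive pool. It was 2.08-fold higher in GC B cells, with a mean of 94.5 ± 6.09 against 45.4 ± 2.50 TPM (SD, n = 3 each), a log2 fold change of 1.04 (SE 0.0686) and a limma adjusted p of 2.64e-05. Atf6, which encodes the sensor that is itself cut into a transcription factor, was lower in GC B cells. Its levels were 10.2, 10.9 and 10.2 TPM in GC pools against 19.5, 18.4 and 17.4 TPM in naive pools, without overlap, for a log2 fold change of −0.76 (SE 0.0802, adjusted p = 0.000233). Ern1, which encodes IRE1, the RNase that splices Xbp1, was the lowest of the 35 genes at 2.03, 2.26 and 3.46 TPM in GC pools and 3.24, 3.41 and 2.29 TPM in naive pools. Those pools overlapped, and the 95% interval of its log2 fold change, −0.65 to 0.32, left room for a change in either direction. Within each pool, Eif2ak3 mRNA was 8.82, 9.26 and 9.0 times as abundant as Atf6 mRNA in GC B cells and 2.47, 2.42 and 2.49 times as abundant in naive B cells. This ratio, like the other ratios between genes given here, was chosen after the values of its genes were seen and carries no test.

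Of the 3 transcription factors, 2 were lower in GC B cells and none was higher, where 30.1% and 35.5% of all genes tested were. Ddit3, which encodes CHOP, the factor induced downstream of ATF4 in prolonged stress, was at 16.5, 21.1 and 17.1 TPM in GC pools against 54.3, 47.2 and 50.4 TPM in naive pools. Every naive pool was above every GC pool, and the naive mean of 50.6 ± 3.56 TPM was 2.77-fold the GC mean of 18.2 ± 2.51 TPM (log2 fold change −1.43, SE 0.108, adjusted p = 5.06e-05). The exons of Ddit3 overlap Mars on the opposite strand, and whether reads were counted by strand is not stated. Xbp1, the factor made active by IRE1, was at 106, 103 and 103 TPM in GC pools and 128, 114 and 118 TPM in naive pools. The groups did not overlap, and the naive mean was 1.15-fold the GC mean (log2 fold change −0.20, SE 0.0549, adjusted p = 0.0174). The call on Xbp1 was lost without GC pool 2 (adjusted p = 0.0564), without GC pool 3 (0.0565) and without naive pool 1 (0.0502). Atf4, the factor translated when PERK is active, was abundant in both populations, at 219, 187 and 200.5 TPM in GC pools and 212, 202 and 208 TPM in naive pools. The groups overlapped, with a 95% interval of −0.19 to 0.12 around a log2 fold change of −0.04. Atf4 mRNA was 13.3, 8.87 and 11.7 times as abundant as Ddit3 mRNA in GC pools and 3.90, 4.29 and 4.13 times as abundant in naive pools.

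The chaperones and co-chaperones were the largest group, with 9 genes, of which 2 were higher in GC B cells, 2 lower and 5 not called. Over all genes tested, 35.5% were called higher and 30.1% lower. Their summed level was 1308, 1264 and 1240.4 TPM in GC pools and 1255, 1121 and 1272 TPM in naive pools, and the pools overlapped (exact permutation p = 0.5 over 3 against 3 pools, two-sided). The GC mean of the sum was 55.1 TPM above the naive mean. Mzb1 alone had a mean of 397 TPM in GC pools and 150.2 TPM in naive pools, a larger difference than that of the sum. The other chaperone genes together were thus lower in GC B cells, with a median log2 fold change of −0.11 over all 9 genes. Hspa5, the HSP70 chaperone BiP that binds unassembled antibody heavy chains and holds the sensors inactive, was at 298, 272 and 283 TPM in GC pools and 336, 308 and 337 TPM in naive pools. The lowest naive pool was just above the highest GC pool, and the difference was small, at 1.15-fold (log2 fold change −0.20, SE 0.0557, adjusted p = 0.0183). That call was lost when GC pool 2, GC pool 3, naive pool 1 or naive pool 3 was left out, with adjusted p between 0.0514 and 0.0634. Hsp90b1, the HSP90 of the ER (GRP94), which folds Toll-like receptors and integrins, was at 151, 153 and 153 TPM in GC pools and 293, 272 and 304 TPM in naive pools. The GC pools were nearly equal and lay far below all naive pools, and the naive mean was 1.9-fold the GC mean (log2 fold change −0.92, SE 0.0502, adjusted p = 1.11e-05). Hsp90b1 mRNA was 0.508, 0.562 and 0.540 times as abundant as Hspa5 mRNA in GC pools and 0.872, 0.885 and 0.901 times as abundant in naive pools. Both promoters hold an ERSE in the windows printed above.

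Mzb1, a BiP-associated co-chaperone of B cells that takes part in the assembly and secretion of IgM, showed the opposite pattern. It was at 418, 405 and 369.8 TPM in GC pools and 152, 138 and 161 TPM in naive pools. All GC pools were above all naive pools, with a mean of 397 ± 24.8 against 150.2 ± 11.4 TPM (2.65-fold, log2 fold change 1.40, SE 0.0731, adjusted p = 9.27e-06), the largest increase among the 35 genes. Mzb1 is also strongly transcribed in plasma cells, and plasma cell markers moved in both directions beside it. Igj, which encodes the J chain, was at 659.6, 693 and 656 TPM in GC pools and 40.3, 22.1 and 37.4 TPM in naive pools, Slamf7 was at 113, 113 and 117 against 18.9, 18.8 and 18.0 TPM, and Prdm1 at 5.22, 4.69 and 5.11 against 0.932, 0.862 and 1.07 TPM. All 3 were higher in GC B cells. Prdm1, however, reached 1 TPM in no naive pool but pool 3. It thus passed the filter through the group where it was high, and its call is no separate support. Irf4 (22.1, 21.9 and 21.2 against 79.6, 79.5 and 70.1 TPM) and Sdc1 (1.65, 0.927 and 1.95 against 3.66, 3.28 and 2.62 TPM) were lower in GC B cells. Tnfrsf17 was listed at 0 in 5 of the 6 pools and at 0.193 TPM in GC pool 1. The sum of the 7 plasma cell markers with a value was 801 to 833 TPM in GC pools and 125 to 143 TPM in naive pools. The part of plasma cells or plasmablasts in the Mzb1 level was not tested.

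Sdf2l1, a BiP cofactor, was the other chaperone gene that was higher in GC B cells, at 70.7, 76.8 and 78.7 TPM against 52.7, 46.1 and 58.9 TPM in naive pools. The groups lay apart by 11.8 TPM at their nearest pools, and the log2 fold change was 0.52 (SE 0.0974, adjusted p = 0.00344). The remaining 5 chaperone genes were not called in the main comparison. Dnajb11 (ERdj3), Dnajc3 (P58IPK) and Dnajb9 (ERdj4) encode J-domain partners of BiP, with log2 fold changes of −0.16, −0.11 and −0.11 and adjusted p of 0.267, 0.15 and 0.305. Manf, a secreted factor retained in the ER by BiP, had a log2 fold change of −0.14 (adjusted p = 0.114), and Creld2, a stress-induced ER protein, of −0.02 (adjusted p = 0.857). The 95% intervals of these 5 genes lay between −0.44 and 0.19, so that a 2-fold change in either direction was outside all of them. Of the 5, 4 were called lower in GC B cells under other processing. Dnajc3 was called on FPKM as deposited, under quantile normalization and median-ratio scaling (adjusted p between 0.0254 and 0.0341) and with length and GC content corrected for (log2 fold change −0.32, adjusted p = 0.00141). With that correction, Dnajb9 (−0.32, adjusted p = 0.0132) and Manf (−0.24, adjusted p = 0.0144) were called too, and Dnajb11 was called when the replicate block was added to it (−0.26, adjusted p = 0.0195). Manf was also called under quantile normalization (−0.25, adjusted p = 0.0209) and without naive pool 2 (−0.21, adjusted p = 0.00996).

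The disulfide oxidoreductases held the largest difference of all 35 genes. Pdia4 (ERp72), a protein disulfide isomerase, was at 34.8, 34.8 and 34.0 TPM in GC pools and 122, 119.5 and 127 TPM in naive pools. The GC pools spanned 0.844 TPM and lay far below every naive pool. The naive mean of 123 ± 3.57 TPM was 3.56-fold the GC mean of 34.5 ± 0.477 TPM, for a log2 fold change of −1.80 (SE 0.0466, adjusted p = 5.09e-07). Pdia3 (ERp57), the isomerase that works with calnexin and calreticulin on glycoproteins and in the loading of MHC class I, was higher in GC B cells, at 287, 265 and 276 TPM against 224, 208 and 240.0 TPM. Its pools did not overlap (log2 fold change 0.30, SE 0.0629, adjusted p = 0.00541), but the call was lost once transcript length and GC content were corrected for (log2 fold change 0.15, adjusted p = 0.108). Its exons overlap Catsper2 on the opposite strand. Pdia3 mRNA was 8.26, 7.63 and 8.12 times as abundant as Pdia4 mRNA in GC pools and 1.83, 1.74 and 1.9 times as abundant in naive pools.

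The paralogs Ero1lb and Ero1l encode the oxidases that reoxidize these isomerases. Ero1lb, whose promoter stretch is printed above, was at 59.6, 61.5 and 58.3 TPM in GC pools and 76.2, 80.0 and 70.1 TPM in naive pools. Those pools did not overlap, and the log2 fold change was −0.33 (SE 0.0625, adjusted p = 0.00361). Ero1l, at 8.61, 8.57 and 9.16 TPM in GC pools and 9.05, 8.39 and 7.49 TPM in naive pools, overlapped between groups (log2 fold change 0.07, 95% interval −0.17 to 0.31). Ero1lb mRNA was 6.37 to 7.17 times as abundant as Ero1l mRNA in GC pools and 8.42 to 9.54 times in naive pools. The isomerases Pdia6 (log2 fold change −0.15, adjusted p = 0.119) and P4hb (−0.08, adjusted p = 0.305) were not called in the main comparison. Both were called lower in GC B cells under quantile normalization (Pdia6 −0.27, adjusted p = 0.0336; P4hb −0.21, adjusted p = 0.0188), and Pdia6 also with length and GC content corrected for (−0.30, adjusted p = 0.0126). The 6 oxidoreductase genes together summed to 671, 662 and 639.6 TPM in GC pools and 733, 709 and 755 TPM in naive pools, and the groups did not overlap (GC over naive 0.898, exact permutation p = 0.1, the smallest the design allows).

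Of the 2 lectin chaperones, which hold glycoproteins by their trimmed sugars, the soluble calreticulin was lower in GC B cells and the membrane-bound calnexin was not called. Calr was the most abundant of the 35 genes in naive B cells, at 542, 507 and 570.2 TPM, and stood at 394, 383 and 382 TPM in GC pools. The groups were separated by 113 TPM at their nearest pools, with a log2 fold change of −0.48 (SE 0.0511, adjusted p = 0.000246). Canx overlapped at 182, 200.4 and 180.4 TPM in GC pools and 189.7, 168 and 182 TPM in naive pools (log2 fold change 0.06, 95% interval −0.10 to 0.22). Its direction turned to −0.08 under quantile normalization. Pdia3, the partner of both lectins, was thus called in the direction opposite to Calr.

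The translocon and the translocon-associated protein (TRAP) complex, through which new chains enter the ER, were represented by 7 genes, of which 5 were higher in GC B cells, 1 was lower and 1 was not called. Of all genes tested, 35.5% were called higher and 30.1% lower, and so few genes carry no statement about these complexes as a whole. Their summed level was 573, 609 and 612 TPM in GC pools and 496, 489 and 496 TPM in naive pools, 1.21-fold higher in GC B cells without overlap (exact permutation p = 0.1). Sec61b, the beta subunit of the channel, was at 198, 219.5 and 222 TPM in GC pools and 116, 127 and 127 TPM in naive pools. All GC pools were above all naive pools (log2 fold change 0.78, SE 0.0637, adjusted p = 7.03e-05). Sec61g, the gamma subunit, had the larger fold, at 18.5, 20.4 and 26.0 TPM against 7.61, 10.3 and 10.3 TPM (2.30-fold, log2 fold change 1.12, SE 0.166, adjusted p = 0.00115). GC pool 3 was the highest for Sec61g and naive pool 1 the lowest, and the groups did not overlap. Sec61a1, the pore-forming alpha subunit, was at 94.0, 84.4 and 98.0 TPM in GC pools and 92.9, 88.9 and 82.4 TPM in naive pools. It overlapped and was not called (log2 fold change 0.06, 95% interval −0.12 to 0.24). Sec61b mRNA was accordingly 2.11, 2.60 and 2.27 times as abundant as Sec61a1 mRNA in GC pools and 1.25, 1.43 and 1.55 times in naive pools.

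In the TRAP complex, 3 of 4 subunits were higher in GC B cells and the fourth was lower, where 35.5% and 30.1% of all genes were. Ssr1 was at 26.3, 27.4 and 25.2 TPM in GC pools and 17.4, 16.2 and 15.5 TPM in naive pools (log2 fold change 0.65, SE 0.0738, adjusted p = 0.00032). Ssr3 was at 74.9, 74.4 and 73.3 against 58.7, 54.1 and 54.0 TPM (log2 fold change 0.41, SE 0.0523, adjusted p = 0.000563). Neither gene overlapped between populations. Ssr2 was at 74.7, 76.7 and 68.5 against 58.9, 53.6 and 62.3 TPM (log2 fold change 0.33, SE 0.0751, adjusted p = 0.00835), and its call was lost under quantile normalization (0.19, adjusted p = 0.0895). Ssr4, the delta subunit, was at 86.8, 106 and 98.9 TPM in GC pools and 144, 139 and 144 TPM in naive pools. It was the only subunit whose naive pools all lay above its GC pools (log2 fold change −0.55, SE 0.0773, adjusted p = 0.000894). The subunits of 1 complex were therefore not called in a common direction, and Ssr3 mRNA was 0.862, 0.702 and 0.742 times as abundant as Ssr4 mRNA in GC pools and 0.408, 0.389 and 0.374 times in naive pools.

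All 5 ERAD genes were called, 4 of them higher in GC B cells, where 65.6% of all genes tested were called and 35.5% were higher, and so few genes carry no statement about ERAD as a whole. Their summed level was 638, 631 and 635 TPM in GC pools and 432, 449.5 and 398 TPM in naive pools, and the GC mean of 635 ± 3.36 TPM was 1.49-fold the naive mean of 426 ± 26.4 TPM (exact permutation p = 0.1). Edem1, a mannosidase-like protein that marks misfolded glycoproteins for disposal, was at 76.0, 79.3 and 75.4 TPM in GC pools and 37.4, 36.7 and 33.5 TPM in naive pools. Every GC pool was above every naive pool, at 2.15-fold (log2 fold change 1.08, SE 0.0607, adjusted p = 1.27e-05). Herpud1, a membrane scaffold of the degradation complex and a target of the PERK arm as well as of ERSE-II, was at 209.5, 204 and 204 TPM in GC pools and 114, 118 and 109 TPM in naive pools. Its GC pools spanned 5.59 TPM and lay at least 85.8 TPM above any naive pool (log2 fold change 0.85, SE 0.0456, adjusted p = 1.03e-05).

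Sel1l and Syvn1 (HRD1), the adaptor and the ubiquitin ligase of the central ERAD complex, were also higher in GC B cells. Sel1l was at 48.4, 51.8 and 50.3 TPM in GC pools and 36.5, 37.4 and 27.2 TPM in naive pools, with naive pool 3 the lowest (log2 fold change 0.57, SE 0.125, adjusted p = 0.00669). Syvn1 was at 270.3, 268 and 271 TPM in GC pools and 201.5, 210.3 and 186 TPM in naive pools (log2 fold change 0.44, SE 0.0528, adjusted p = 0.000447). Neither gene overlapped between populations, and the ratio of Syvn1 to Sel1l mRNA did overlap, at 5.16 to 5.59 in GC pools and 5.52 to 6.84 in naive pools. The exons of Syvn1 overlap Mrpl49 on the opposite strand. Edem2, the mannosidase that starts the trimming, was the ERAD gene lower in GC B cells, at 33.8, 28.6 and 33.7 TPM against 41.8, 46.9 and 42.0 TPM (log2 fold change −0.44, SE 0.0893, adjusted p = 0.00509). Edem1 mRNA was 2.25, 2.78 and 2.24 times as abundant as Edem2 mRNA in GC pools and 0.894, 0.782 and 0.798 times in naive pools, so that their order was the opposite in the 2 populations.

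**Figure D3:**
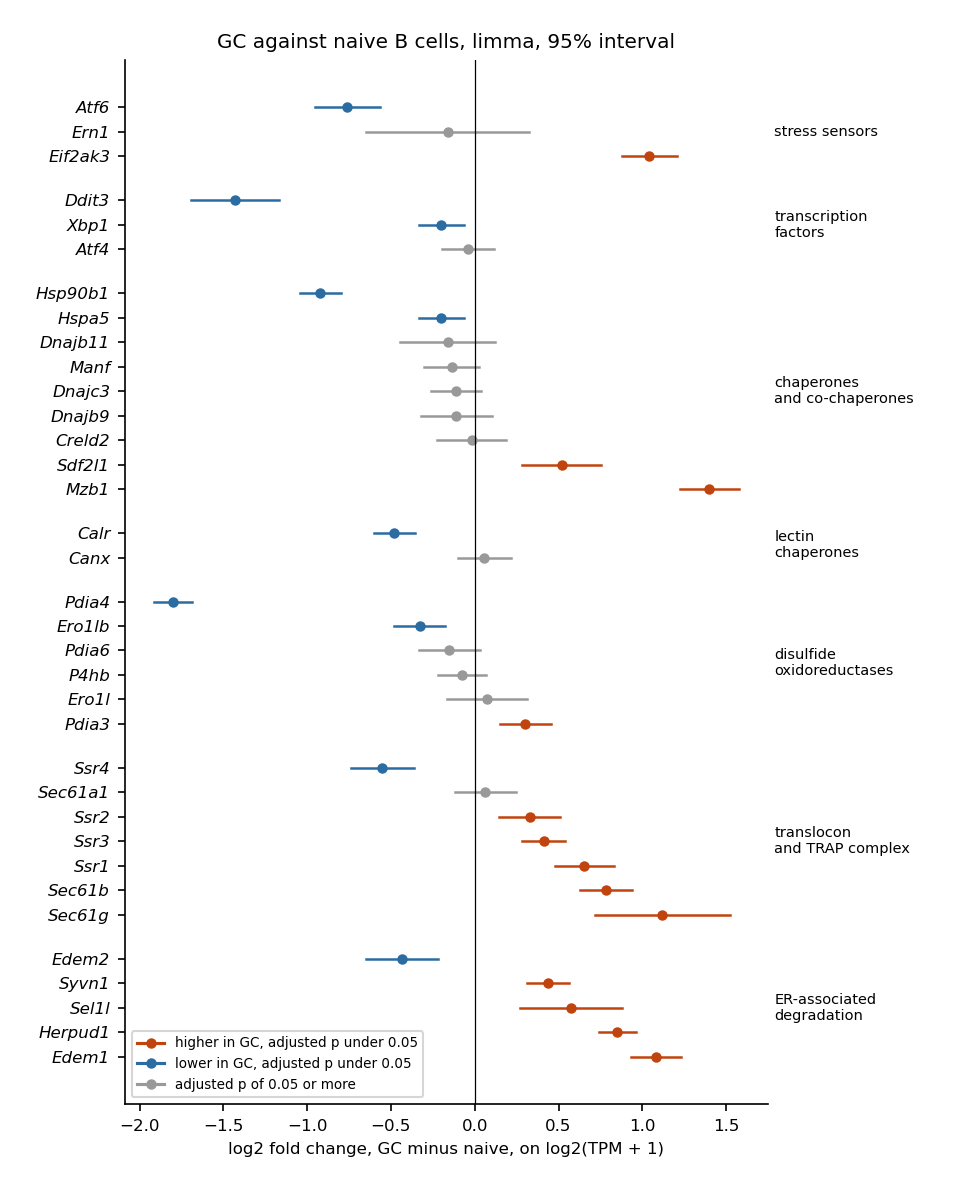
Log2 fold change of GC against naive B cells on log2(TPM + 1) for the 35 genes, ordered by role, with the 95% interval from limma; red marks genes higher in GC B cells, blue lower and gray not called. Values run from −1.80 for Pdia4 to 1.40 for Mzb1, and red marks 4 of 5 ERAD genes and 5 of 7 translocon and TRAP genes. Over all genes tested, 35.5% were called higher in GC B cells.

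**Figure D4:**
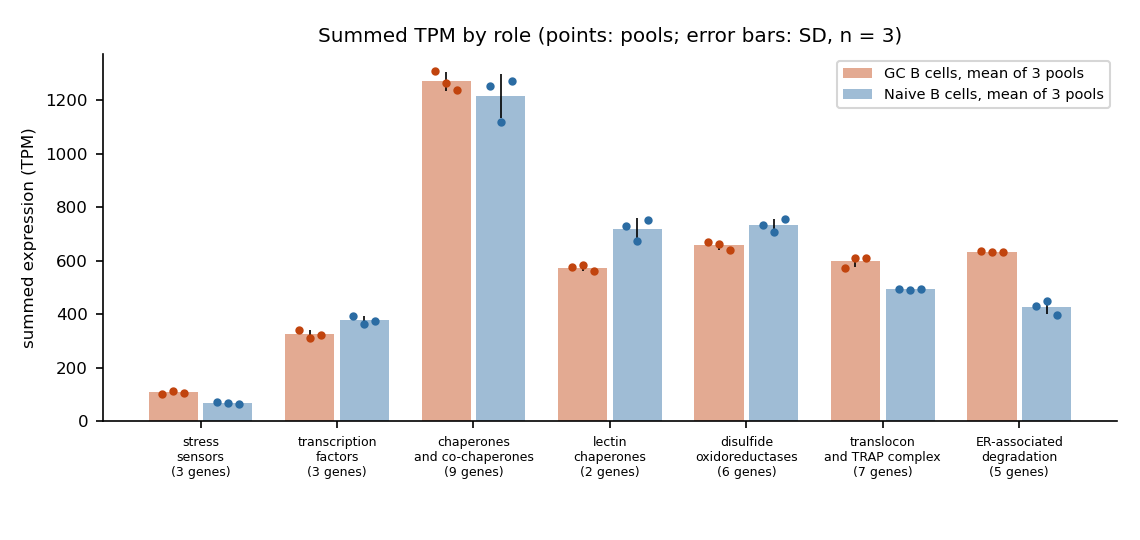
Summed TPM of the genes of each role in GC (red) and naive (blue) B cells; bars are means of 3 pools, error bars are SD and points are pools. ERAD genes sum to 631 to 638 TPM in GC pools and 398 to 449.5 TPM in naive pools, and the lectin chaperones to 562 to 583 and 675 to 753 TPM. The sums of the chaperones, which include Mzb1, overlap.

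Replicates were close for most of these genes. The coefficient of variation over 3 pools had a median of 5.54% in GC B cells and 6.05% in naive B cells, and it was highest for Ern1, the gene with the lowest level, at 29.8% and 20.3%. Of the 23 called genes, 19 remained called in the same direction under all 17 alternatives of scaling, filter, pseudocount, pairing, sequence correction and left-out pools that were run, and none of the 23 changed direction. The 4 exceptions were Xbp1, Hspa5, Pdia3 and Ssr2. Of the 12 genes not called, 6 (Dnajc3, Dnajb9, Dnajb11, Manf, Pdia6 and P4hb) were called lower in GC B cells under at least 1 alternative. Beside the genes named above, exons of Hsp90b1, Pdia6 and Manf overlap a gene on the opposite strand. The direction of each role's sum was also the same under the other scalings, apart from the chaperones and the total of the 35 genes.

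Genes of 7 related lists were examined to place the 35 genes within the rest of the pathway, and none of the lists was tested as a set. Their counts stand against 35.5% higher and 30.1% lower among all genes tested, and the share called in either direction ran from 44.4% to 82.4% over the lists, against 65.6%. The lists that bear on entry and processing held calls in both directions. Of 20 genes for protein targeting to the ER and removal of the signal peptide, 8 were higher in GC B cells, 5 lower (3 without GC pool 2 or without naive pool 1) and 7 not called, with a median log2 fold change of 0.05. Tram2, a translocon-associated membrane protein, had the largest increase of these (8.21, 8.25 and 9.21 against 4.66, 4.17 and 3.74 TPM, log2 fold change 0.88, adjusted p = 0.000538). Sec63, the J-domain protein of the channel, had the largest decrease (24.0, 27.9 and 26.4 against 34.8, 32.9 and 39.3 TPM, log2 fold change −0.43, adjusted p = 0.00576). The most abundant, Sec11c, a catalytic subunit of signal peptidase, overlapped between groups at 161 to 178 and 157 to 170.1 TPM. Of 17 N-glycosylation genes, 8 were higher, 4 lower and 5 not called, with a median of 0.23. Stt3b, a catalytic subunit of oligosaccharyltransferase, was at 256, 258 and 257 TPM in GC pools and 131, 124 and 119 TPM in naive pools, without overlap (log2 fold change 1.04, adjusted p = 4.71e-06). Dad1, a small subunit of the same enzyme, was lower in GC B cells (116, 99.7 and 102 against 159.9, 142 and 153 TPM, log2 fold change −0.51, adjusted p = 0.00118).

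Further ERAD and folding genes were called in both directions. Of 17 other ERAD genes, 8 were higher in GC B cells, 6 lower and 3 not called, with a median log2 fold change of −0.01. Ube2j1, the ER ubiquitin-conjugating enzyme, was at 152, 154 and 161 TPM in GC pools and 39.3, 43.2 and 32.7 TPM in naive pools. It was 4.05-fold higher in GC B cells, and no pools overlapped (log2 fold change 2.0, adjusted p = 8.24e-06). Vcp, the ATPase that extracts substrates from the membrane, was at 229, 222 and 228 against 119, 119 and 121 TPM (log2 fold change 0.91, adjusted p = 2.9e-06). Os9, a lectin that delivers substrates to the ligase complex, was lower in GC B cells, at 41.9, 43.7 and 43.1 against 60.3, 63.7 and 57.5 TPM (log2 fold change −0.49, adjusted p = 0.000398). Of 20 other ER folding factors tested, 8 were higher, 7 lower and 5 not called, with a median of −0.12. Erp44, which retrieves unassembled IgM subunits and the ERO1 oxidases from the Golgi, was at 204, 213 and 210.1 against 44.5, 55.8 and 66.7 TPM, 3.76-fold higher in GC B cells (log2 fold change 1.91, adjusted p = 4.02e-05). Fkbp11, a prolyl isomerase known from secretory cells, was at 0.455, 0.249 and 0 TPM in GC pools and 4.75, 5.20 and 7.18 TPM in naive pools, so that all naive pools were higher (log2 fold change −2.44 with a pseudocount of 1 TPM). Fkbp11 reached 1 TPM in naive pools only, so it passed the filter through the group where it was high, and its call is no separate support. Ppib, cyclophilin B, was the most abundant of this list and was lower in GC B cells (205, 191 and 186 against 259, 243 and 285 TPM, log2 fold change −0.43, adjusted p = 0.00184).

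Genes listed as targets of ATF4 and CHOP had the highest median log2 fold change of the 7 lists, 0.40, with 10 of the 20 tested higher in GC B cells, 3 lower (1 without GC pool 2, GC pool 3, naive pool 1 or naive pool 3) and 7 not called, while Atf4 itself overlapped between populations and Ddit3 was lower. The 13 called genes are 65.0% of this list, near the 65.6% of all genes. Asns, asparagine synthetase, was at 46.4, 33.6 and 40.5 TPM in GC pools and 0.50, 0.958 and 1.14 TPM in naive pools. Every GC pool was far above the naive pools, which lay near 1 TPM (log2 fold change 4.47 with a pseudocount of 1 TPM). Among naive pools, Asns reached 1 TPM in pool 3 only. It thus passed the filter through the group where it was high, and its call is no separate support. The 10 higher genes include Asns and another gene that passed in this way. Ddit4 (REDD1), an inhibitor of mTORC1 signaling, went the other way, at 21.6, 20.4 and 20.2 against 137, 94.5 and 103 TPM, and naive pool 1 was the highest (log2 fold change −2.36, adjusted p = 1.51e-05). Sars, seryl-tRNA synthetase, was slightly lower in GC B cells (104, 104 and 105 against 130.1, 111 and 121 TPM, log2 fold change −0.21, adjusted p = 0.0239). Many of these genes serve amino acid metabolism and tRNA charging and are regulated outside ER stress as well.

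Of 25 genes of the COPII and COPI coats, their cargo receptors and the KDEL receptors, which carry proteins between the ER and the Golgi, 10 were higher in GC B cells, 7 lower and 8 not called, with a median of −0.02. Sec24d, a cargo-binding subunit of the COPII coat, was at 11.0, 11.6 and 9.71 against 3.04, 2.53 and 2.26 TPM, without overlap (log2 fold change 1.71, adjusted p = 4.52e-05). Mcfd2, a cargo receptor subunit, was lower (17.3, 14.7 and 15.2 against 24.5, 21.4 and 27.4 TPM, log2 fold change −0.60, adjusted p = 0.0034), and the abundant Tmed2 overlapped between populations (116 to 119.5 and 109 to 123 TPM). Of 18 other ER stress regulators, 5 were higher, 3 lower and 10 not called, with a median of −0.01. The 5 higher genes include a gene that reached 1 TPM in GC pools only and so passed the filter through the group where it was high. Eif2s1, the alpha subunit of eIF2 on which PERK acts, was at 59.4, 59.8 and 58.5 TPM in GC pools and 30.0, 29.3 and 32.0 TPM in naive pools, a difference of nearly the size of that of Eif2ak3 itself (log2 fold change 0.94, adjusted p = 1.55e-05). Atf6b, a relative of Atf6, overlapped at 77.6 to 93.9 and 76.7 to 105 TPM (log2 fold change −0.15, adjusted p = 0.36). Creb3l2, a further membrane-bound transcription factor of the ER, was lower in GC B cells at 0.565, 0.443 and 0.488 against 2.16, 1.57 and 2.12 TPM (log2 fold change −0.97 with a pseudocount of 1 TPM). Creb3l2 reached 1 TPM in naive pools only, so it passed the filter through the group where it was high, and its call is no separate support.

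**Figure D5:**
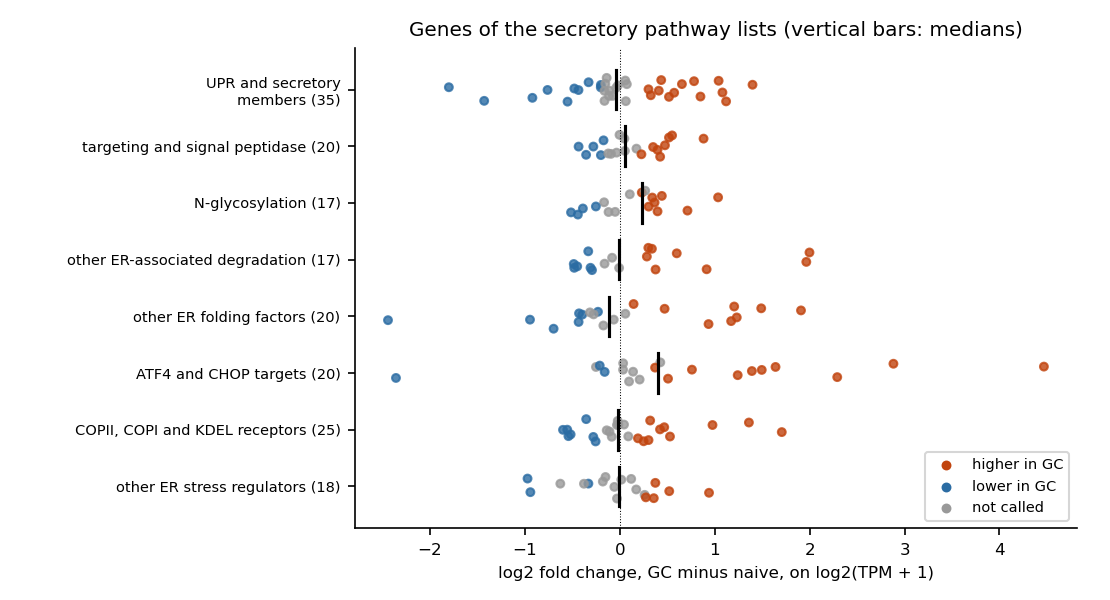
Log2 fold change of GC against naive B cells on log2(TPM + 1) for each tested gene of the 35-gene set and of the 7 related lists, with the number of genes in parentheses; red marks genes higher in GC B cells, blue lower, gray not called, and vertical bars are medians. Each list holds calls in both directions, and medians run from −0.12 for other ER folding factors to 0.40 for ATF4 and CHOP targets.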

How the data were processed

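RNA-Seq libraries were made from 100 ng of total RNA per pool (NEB NEXT Ultra kit, Illumina HiSeq), from 3 pools of GC and 3 of naive B cells. The authors trimmed adapters (cutadapt v1.9), ran RSEM v1.2.25 against the transcripts of NCBIm38 v75 and deposited the resulting FPKM to 2 decimals. No count is used here, since whole reads could not be recovered: 64.7% to 70.5% of low values of short genes lay within 0.15 of a whole read at the estimated depths, and the pools' precision is therefore judged from their spread. For TPM, each FPKM was taken as a share of its pool's FPKM sum (717537 to 774597) and scaled to parts per 1000000. Symbols from the NCBIM37 annotation named 33398 of 39179 identifiers; of 239 listed genes, 2 (Ighd and Igha) had no match and are not analysed here.

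The main comparison was fitted to log2(TPM + 1) with limma 3.58.1 (R 4.3.3; lmFit, eBayes with a trend, two-sided). It covered the 12785 genes that reached 1 TPM in 3 or more pools, and calls were made at 0.05 after Benjamini-Hochberg adjustment over them. Fold changes on this scale understate those of low genes. The fit was tested on simulated data with independent noise and a log2 change of 1 in 200 of 12785 genes. It recovered 81.5% of them, with 10 false calls. In the measured data 65.6% of genes were called, so the simulation does not cover changes as widespread as these. Summed TPM was compared with exact permutation tests (scipy 1.17.1). Promoter windows came from RefSeq (GRCm38.p6). The rule for the 35 genes uses no measured value, but the 35 genes, the lists, roles, motifs and alternatives were chosen with earlier results of these data known. From each related list, the called genes with the largest and the lowest log2 fold change and the gene with the highest mean TPM are named, and any marker gene may be named.

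Pools of both populations carry numbers 1 to 3, and no source ties pools of the same number to the same mice, so the main comparison has no replicate block. Alternatives were the pseudocount (0.1, 0.01), no filter or a filter of at least 10 TPM, FPKM as deposited, leaving out 81 immunoglobulin genes, quantile and median-ratio scaling, a correction for GC content and length (splines with 5 degrees of freedom over 11031 genes), the replicate number as a block, and each pool left out in turn.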

Additional observations from a re-analysis of the deposited data

How the results depend on the processing

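Of 593 recomputed values for single genes among the 35, 556 kept their direction and their side of the threshold. Of 340 recomputed counts, medians and sums, 309 met loose bounds. A count had to stay within a fixed factor, the median within 0.0304 of its main value, and the sum had only to keep its sign. A sum of 15.3 in place of 135 TPM thus met its bound, and the pseudocount and the replicate block cannot change the sum. The 13 genes higher in GC B cells became 11 to 13 and the 10 lower became 8 to 15. The GC content and length correction moved the median of all genes from 0.03 to −0.08, so its values are to be read relative to that shift. Under it, with and without the replicate block, the targeting and signal peptidase genes went from 8 to 5 higher and from 5 to 9 lower, N-glycosylation genes from 8 to 4 higher, other ER stress regulators from 5 to 3 higher (also 3 under quantile normalization), and COPII, COPI and KDEL receptor genes from 7 to 11 lower. Quantile normalization gave 12 lower COPII, COPI and KDEL receptor genes and 7 in place of 4 lower N-glycosylation genes.

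The median log2 fold change of the 35 genes, −0.0378, was −0.0895 on FPKM as deposited, −0.147 under quantile normalization, −0.0784 under median-ratio scaling and −0.146 under the GC content and length correction, with and without the block. The difference in their summed level, 135 TPM, was 15.3 under median-ratio scaling and 121 without immunoglobulin genes, and it was −11.6 as FPKM, −197 under quantile normalization and −208 under the GC content and length correction, with and without the block. Among genes not called, Canx turned to −0.0789 under quantile normalization and −0.14 under the GC content and length correction (both fits), Sec61a1 to −0.0855 under quantile normalization, and Ero1l to −0.12 under the GC content and length correction (both fits).

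Leaving out pools one at a time gave a median of −0.0813 (without naive pool 2) to 0.00694 (without GC pool 2), a summed difference of 55.7 (without naive pool 2) to 175 TPM, 3 to 4 lower targeting and signal peptidase genes (3 without GC pool 2 or naive pool 1) and 1 to 2 lower ATF4 and CHOP targets, where 1 was left without GC pool 2, GC pool 3, naive pool 1 or naive pool 3. Atf4 ranged from −0.0971 to 0.0164 (without GC pool 2), and Creld2 from −0.0838 to 0.0428 (without naive pool 3), and was also above 0 without GC pool 2 (0.0069) or GC pool 3 (0.0048). The cause of these changes was not tested.

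Same-numbered GC and naive pools deviated together weakly (r = 0.083, 0.0225 and 0.0456 across genes), and the other pairs ran from −0.0746 to 0.0298. Each GC pool correlated best with the naive pool of its own number. Naive pool 2, in turn, correlated better with GC pool 3 (0.0298) than with GC pool 2. With the replicate block, 4342 genes were higher and 3618 lower, in place of 4540 and 3852, and 7795 genes were called in both fits. The 35 genes stayed at 13 higher and 10 lower with the block, and the lower targeting and signal peptidase genes went from 5 to 3.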
